A study of Mus musculus with 6 samples.

Results

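Heme synthesis and iron handling were followed in the mouse liver through 10 genes: Alas1, Alad, Urod and Fech of heme synthesis, Hmox1 of heme breakdown, and Hamp, Tfrc, Trf, Slc40a1 and Fth1 of iron uptake, transport, export and storage. Their measurements are all probe sets that the platform annotation assigns to exactly 1 of these symbols, and 9 of the 10 genes, out of 12393 in the series, had at least 1. Trf, the plasma iron carrier transferrin, was not analysed here because its probe set also carries the symbol of another gene. The 9 genes had 23 probe sets, of which 18 lay on both array designs, 2 on the larger design alone, and 3 were control probe sets of Tfrc. The groups were livers of C57BL/6J mice, an inbred strain prone to obesity on fat-rich food, on a high-fat diet for 2, 4 or 10 weeks or on the control diet for the same times. Each diet had 1 array per week, 6 arrays in all, so a single week has no replicate. Mice were assigned to the diets at random, and the high-fat diet is abbreviated HFC in the design text, with no explanation of the C. The labels state neither the fat source, the iron content of the diets, the sex or age of the mice, nor whether an array holds 1 animal or a pool, although RNA was isolated mouse by mouse.

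Hepatocytes make heme mainly for cytochromes P450 and other enzymes. ALAS1 starts the pathway and sets its rate, heme represses it, and fasting and drugs that induce cytochromes P450 raise it. The liver also controls the iron of the whole body: hepatocytes secrete hepcidin, which makes ferroportin on macrophages, enterocytes and hepatocytes disappear from the cell surface, and ferritin stores the iron that stays inside. Hepcidin is induced by iron through bone morphogenetic proteins and SMAD factors, and by inflammation through STAT3.

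No probe set of these genes passed the test between the diets over the 3 weeks. Of the 16 probe sets that lay above a detection floor, the 40th percentile of all signals, on at least 3 arrays, 0 passed limma's test with week as a block at a Benjamini-Hochberg adjusted p under 0.05, and 0 had an unadjusted p under 0.05. Over all 14533 probe sets tested, 0.0138% were called higher and 0% lower, and 4.03% had an unadjusted p under 0.05. The member nearest to the threshold was Fth1, with a mean log2 difference of -0.50 (standard error 0.231, limma adjusted p = 0.993). Each week gave 1 array per diet, so the error combines the scatter of the weekly differences with the spread that limma shares over all probe sets. The 95% intervals of the mean ran on the log2 scale from -0.55 to 0.69 for the brighter Alas1 probe set, from -0.94 to 0.17 for Hamp and from -1.02 to 0.02 for Fth1. Members were above 0 on average for 6 probe sets and below 0 for 10, with a median of -0.08, against 6534 above, 7999 below and a median of -0.03 over all probe sets tested.

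**Figure D1:**
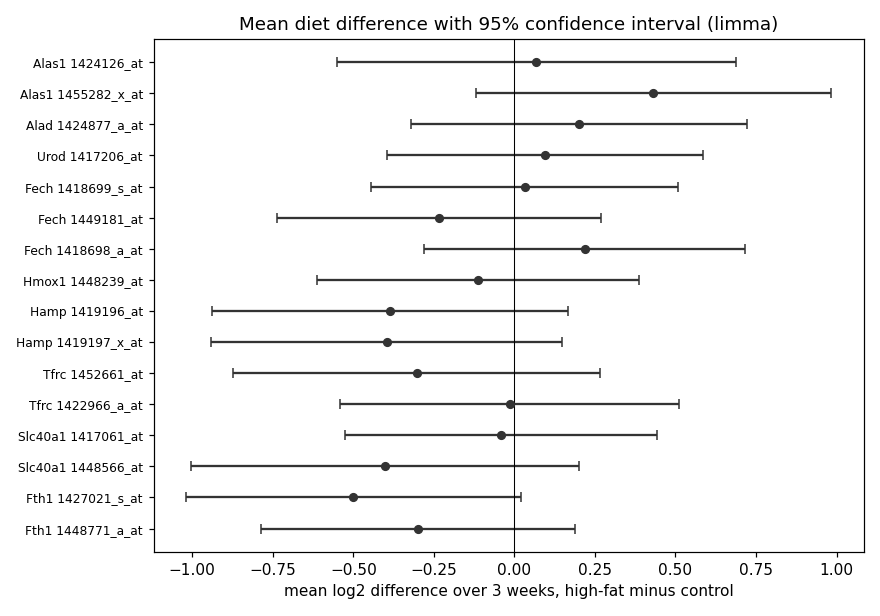
Mean log2 difference between the diets over weeks 2, 4 and 10 for each of the 16 tested probe sets (high-fat minus control, points) with the 95% confidence interval from limma (bars). Every interval crosses 0, and that of Fth1 probe set 1427021_s_at ends nearest to it, at 0.02.

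At single weeks, a difference of at least 1.5-fold was counted, with no test. At week 2, 0 of 16 probe sets were higher and 2 lower on the high-fat array, where 7.38% and 10.2% of all tested probe sets were. At week 4, 2 were higher and 3 lower, against 4.46% and 7.27%, and 2 and 0 under quantile normalization and after loess. At week 10, 0 were past that fold, against 14% higher and 13.6% lower, or 27.6% either way. In opposite directions at 2 weeks 0 of 16 were, against 5.73%. With the centred values, the members past that fold were Slc40a1 and Tfrc at week 2, and Alas1, Hamp and Fth1 at week 4. Week 10, the week with most differences over all probe sets, held none past that fold with these values. Alas1 1424126_at, Tfrc 1452661_at and Fech 1449181_at lay just short of it there, at 1.49-fold, 1.48-fold and 1.47-fold lower. That Tfrc probe set passed it at week 10 under quantile normalization (-0.69) and after loess (-0.59).

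**Figure D2:**
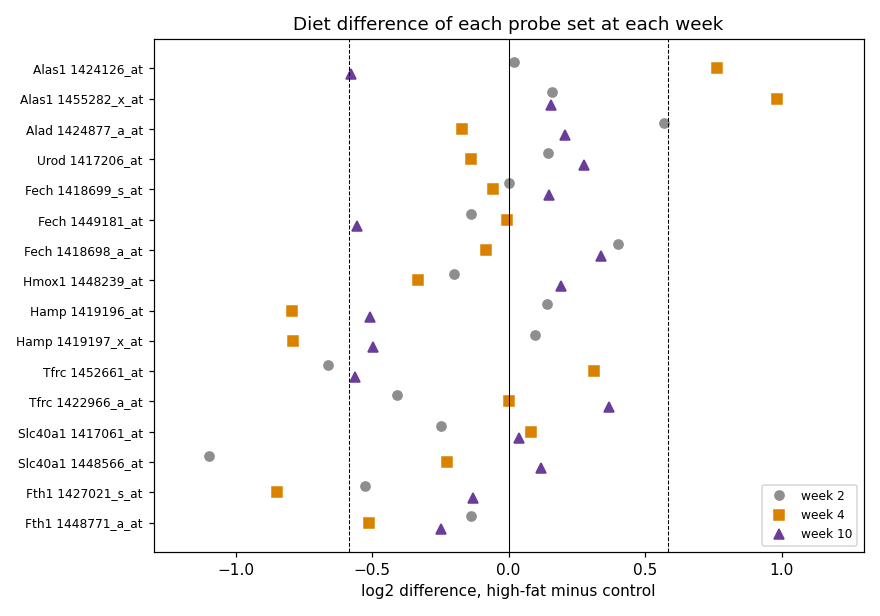
Log2 difference between the high-fat and the control array of the same week (x axis) for each tested probe set (rows), with week 2 as circles, week 4 as squares and week 10 as triangles. Dashed lines mark 1.5-fold. Alas1, at 0.76 and 0.98 in week 4, lies furthest to the right, and Slc40a1 probe set 1448566_at, at -1.10 in week 2, furthest to the left.

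The arrays themselves bear on these values. The floor was a centred signal of 155.3, and 62.0 to 65.8% of shared probe sets were above it on the arrays of weeks 2 and 10 but 50.4 and 51.7% at week 4, which used the larger design. The 3'/5' ratio of pyruvate carboxylase, a sign of RNA quality, was 9.64 in the high-fat sample against 3.82 in the control sample after 2 weeks, 7.78 against 4.26 after 4, and 2.39 against 4.01 after 10. The control array of week 10 had a bioD spike-in signal of 21252, against 3822 to 13606 on the other arrays. The part of these in the results below was not tested. Albumin, at signals from 24075 to 94959, and 9 other hepatocyte markers were above the floor on every array.

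Alas1, the rate-setting enzyme of heme synthesis, was higher on the high-fat array of week 4 on both of its probe sets. On the brighter one (1424126_at) the signal was 5746 in the high-fat sample against 5670 in the control sample after 2 weeks, 6835 against 4029 after 4, and 9654 against 14415 after 10. On the other (1455282_x_at) it was 581.2 in the high-fat against 521.0 in the control sample after 2 weeks, 1313 against 664.4 after 4, and 691.7 against 621.4 after 10. That probe set is dimmer, and its suffix marks probes that may bind several transcripts. The diets were near each other at week 2 on both probe sets. At week 4 the high-fat array was 1.70-fold higher on the brighter probe set and 1.98-fold on the other. At week 10 the 2 disagreed, with log2 differences of -0.58 and 0.15. Over the 3 weeks the mean log2 differences were 0.07 (standard error 0.276, limma adjusted p = 1) and 0.43 (standard error 0.246, adjusted p = 0.993). The second was above the control sample at all 3 weeks, as 8.24% of all tested probe sets were, and 1 of 16 members was. The difference of week 4 stayed past 1.5-fold under all 6 settings of scaling and floor. It lay between 0.76 and 0.98 on the brighter and between 0.84 and 1.06 on the other probe set. The 20th and 60th percentile floors could not move it, since the signals lay above both.

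Background on Alas1 includes a promoter that binds nuclear respiratory factor 1, encoded by Nrf1, and its coactivator PGC-1alpha, encoded by Ppargc1a. The 30 bases around that factor's palindrome are shown because Alas1 stayed past 1.5-fold at week 4 under every scaling. They come from RefSeq's GRCm38.p6 promoter table, chr9:106247906-106247935, minus strand, and the palindrome, in capitals, lies 195 to 186 bases before 1 of the 2 listed starts.
Alas1: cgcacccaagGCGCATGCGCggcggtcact
The palindrome, the half-site GCGCA followed by its reverse complement, searched on both strands, is in 0.782% of all 250-base windows before a start, and it overlaps none of the other motifs searched in this window. It was not in the windows of the other members that the table lists. On the arrays, Nrf1 differed by -0.44, -0.50 and 0.12 (log2) at weeks 2, 4 and 10, with means of -0.23 and 0.23 on 2 other probe sets, and Ppargc1a 0.40, 0.09 and 0.18 on its brightest probe set, with means of -0.37 to -0.01 on the other 3.

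The later enzymes of heme synthesis did not show the week 4 difference of Alas1. Alad, which joins 2 molecules of aminolevulinate to the first pyrrole, had signals of 2030 in the high-fat sample against 1368 in the control sample after 2 weeks, 4480 against 5046 after 4, and 2212 against 1918 after 10. At week 2 it was 1.48-fold above control, and its mean log2 difference was 0.20 (standard error 0.233, limma adjusted p = 0.993). Urod, the decarboxylase that makes coproporphyrinogen, had 974.0 in the high-fat against 880.6 in the control sample after 2 weeks, 1276 against 1405 after 4, and 1028 against 848.5 after 10, a mean log2 difference of 0.09 (standard error 0.218, adjusted p = 0.997). At both genes the high-fat array was above the control array at weeks 2 and 10 and below it at week 4. Their further probe sets on the larger design had log2 differences of -0.14 (Alad) and 0.12 (Urod) at week 4, where 14.4% of such probe sets differed by 1.5-fold either way.

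Fech, the ferrochelatase that puts iron into protoporphyrin, had 4 probe sets, and 1 of them lay at the floor on all 6 arrays. The brightest (1418699_s_at) had 3185 in the high-fat sample against 3178 in the control sample after 2 weeks, 4338 against 4517 after 4, and 4303 against 3879 after 10. These pairs are almost level. The second (1449181_at) had 1580 in the high-fat against 1740 in the control sample after 2 weeks, 2279 against 2288 after 4, and 2099 against 3084 after 10, so that it was 1.47-fold lower on the high-fat array of week 10. The third (1418698_a_at) had 793.9 in the high-fat against 601.3 in the control sample after 2 weeks, 1571 against 1665 after 4, and 950.9 against 751.8 after 10, above control at weeks 2 and 10. Their means over the weeks lay between -0.23 and 0.22, with limma adjusted p of 0.993 to 1, and the 3 probe sets had 1 sign at week 4 but not at weeks 2 and 10.

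Hmox1, the inducible heme oxygenase that opens the heme ring and frees its iron, had signals of 666.2 in the high-fat sample against 764.9 in the control sample after 2 weeks, 311.2 against 392.1 after 4, and 485.2 against 424.5 after 10. The high-fat array was lower at weeks 2 and 4 and higher at week 10, by at most 0.33 on the log2 scale. Its mean log2 difference was -0.11 (standard error 0.223, limma adjusted p = 0.996). From week 2 to week 10, compared within the smaller design, it was lower at week 10 on both diets, by -0.46 on the high-fat and -0.85 on the control diet.

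**Figure D3:**
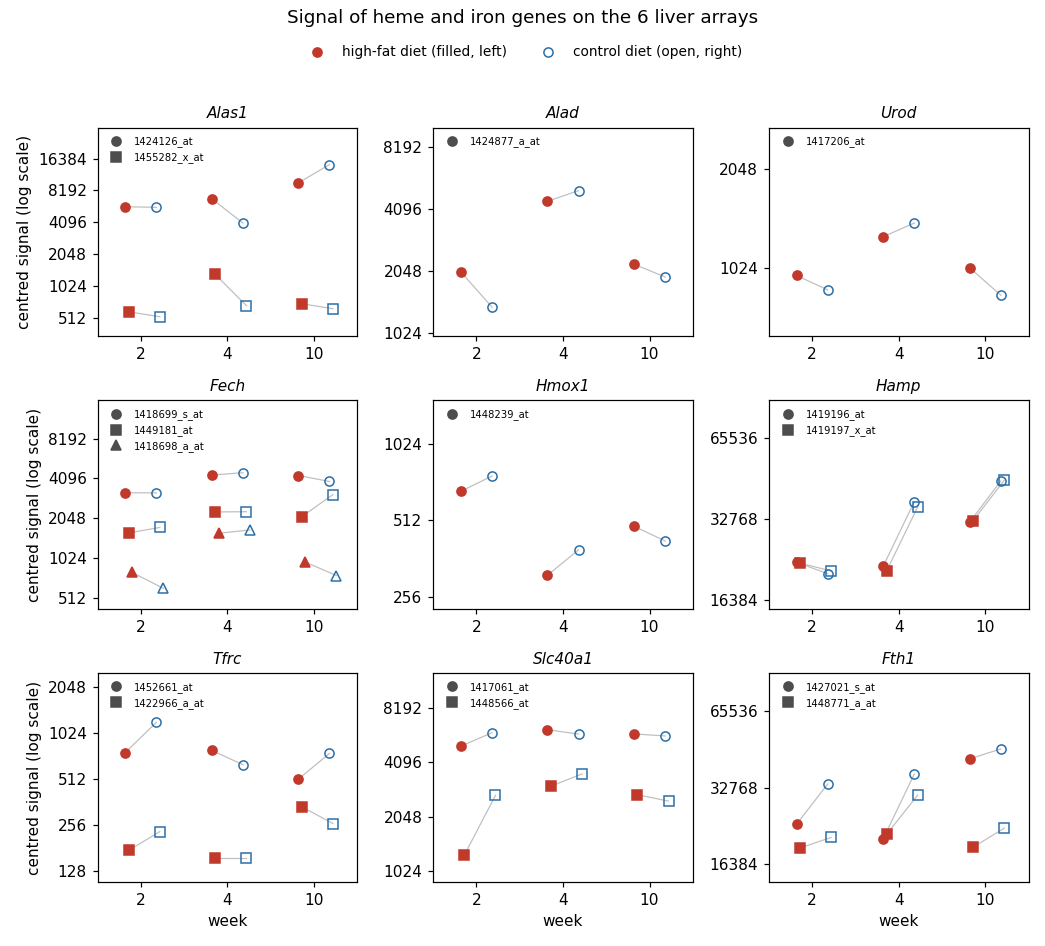
Centred signal (y axis, log scale) of the 9 genes at weeks 2, 4 and 10 (x axis), with the high-fat array filled on the left and the control array open on the right of each week, 1 array per point and a marker shape for each probe set. Alas1 is higher on the high-fat array of week 4 on both probe sets, and Hamp and Fth1 are lower there.

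Hamp encodes hepcidin. Its first probe set (1419196_at) had a signal of 22656 in the high-fat sample against 20558 in the control sample after 2 weeks, 21867 against 37939 after 4, and 31904 against 45311 after 10. The other (1419197_x_at) had 22503 in the high-fat against 21045 in the control sample after 2 weeks, 21030 against 36342 after 4, and 32295 against 45607 after 10, log2 differences of 0.10, -0.79 and -0.50. The diets were near each other at week 2, and the high-fat array was 1.73-fold lower at week 4 and 1.42-fold lower at week 10. The week 10 differences of the 2 probe sets were -0.11 and -0.11 under quantile normalization and -0.27 and -0.26 after loess. The mean log2 differences were -0.39 (standard error 0.246, limma adjusted p = 0.993) and -0.40 (standard error 0.242, adjusted p = 0.993). Hamp2, its close paralog, whose transcripts these probe sets may also bind, had -0.40, -0.87 and 0.15 at the 3 weeks and was chosen after its values were seen. From week 2 to week 10, the log2 level of Hamp was higher by 0.49 with high-fat food and by 1.14 with control food.

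The promoter of Hamp is shown because its 2 inputs, SMAD factors and STAT3, are the regulators followed below. It is the 250 bases before the start in RefSeq's GRCm38.p6 table, chr7:30944030-30944279, minus strand. Capitals mark GGCGCC, the core of the element that bone morphogenetic protein signals use, and TTCTTGGAA, a STAT site.
Hamp: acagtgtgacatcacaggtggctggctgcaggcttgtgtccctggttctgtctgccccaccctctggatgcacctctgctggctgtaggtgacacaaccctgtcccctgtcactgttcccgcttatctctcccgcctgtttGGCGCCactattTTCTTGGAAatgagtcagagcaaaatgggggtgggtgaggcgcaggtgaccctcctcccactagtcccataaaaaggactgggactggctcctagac
The first lies 109 to 104 and the second 97 to 89 bases before the start, with no overlap. Searched on both strands, GGCGCC is in 9.59% and TTCTTGGAA in 0.365% of all such windows. Among the 6 members with a window in the table, Tfrc and Urod also hold GGCGCC, and Hamp alone holds TTCTTGGAA. The antioxidant element core TGACNNNGC, found in 10.2% of windows, was in none of the members' windows.

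Fth1, the heavy chain of ferritin, lay below control in all 3 weeks on both of its probe sets. Of all tested probe sets 11.7% did so, and of the 16 members 3 did, the other being Fech 1449181_at. On the brighter (1427021_s_at) the signal was 23533 in the high-fat sample against 33859 in the control sample after 2 weeks, 20584 against 37027 after 4, and 42501 against 46484 after 10. On the other (1448771_a_at) it was 18993 in the high-fat against 20882 in the control sample after 2 weeks, 21477 against 30625 after 4, and 19121 against 22710 after 10. The gap was widest at week 4, at 1.80-fold and 1.43-fold, and at week 10 the brighter turned to 0.18 under quantile normalization and 0.12 after loess, and the other stayed below 0 at -0.05 and -0.07. The second had a mean log2 difference of -0.30 (standard error 0.217, limma adjusted p = 0.993). Both probe sets carry suffixes for several transcripts, and the part of near-identical ferritin copies in their signal was not tested.

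At week 4 brightness moved with the difference between the diets, and Hamp and Fth1 are among the brightest probe sets on these arrays. Of the 440 tested probe sets with a mean signal of 10000 or more, 44.8% were past 1.5-fold below control at week 4, 15.7% at week 10 and 2.5% at week 2, with medians of -0.55, -0.19 and -0.10. The 4 probe sets of Hamp and Fth1 were among them. After a loess correction for brightness at week 4, Hamp had -0.25 and -0.25 and Fth1 -0.31 and 0.01, and under quantile normalization Hamp had 0.00 and -0.08 and Fth1 -0.17 and 0.25. Hepatocyte markers went the same way: 9 of the 10 tested were past 1.5-fold below control at week 4, 1 at week 2 and 1 at week 10, with medians of -0.84, -0.04 and -0.48. Of all tested probe sets 7.27%, 10.2% and 13.6% were that much lower at these weeks. Of the 10 markers 0 rose and 0 fell over the weeks by limma, where 0.0138% and 0% of all tested probe sets did. An unadjusted p under 0.05 was found for 3 of the 10, against 4.03%. The median of their mean log2 differences was -0.49, against -0.03 over all tested probe sets. The summed signal of these markers was 213873 to 410599 on the high-fat and 325295 to 542304 on the control arrays. Hnf4a, the dimmest of the 10, had signals of 6284 on the high-fat and 6863 on the control array of week 4, a log2 difference of -0.13. In such bulk tissue, fewer hepatocytes, less RNA in each and the shift with brightness cannot be told apart. The part of each in the values of Hamp and Fth1 was not tested.

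**Figure D4:**
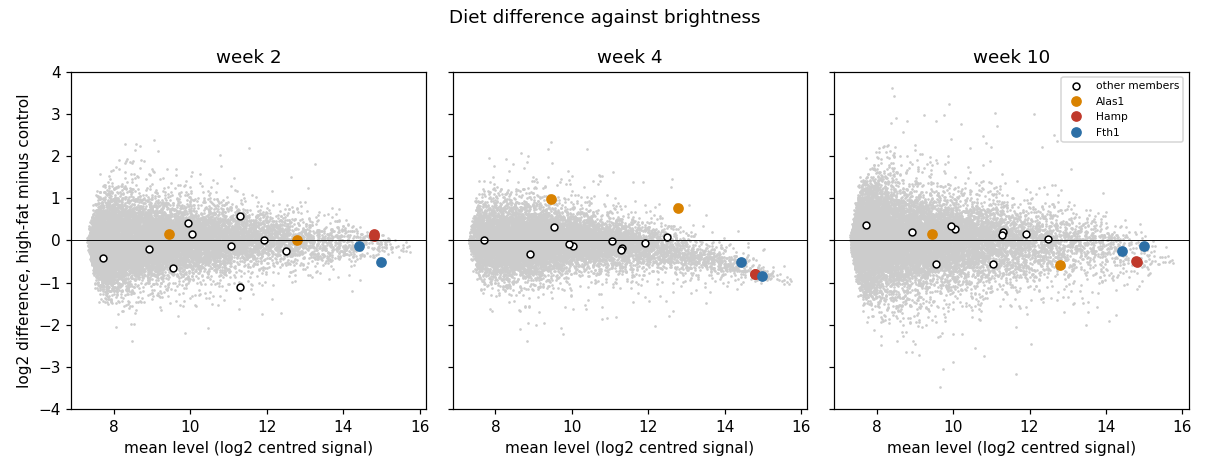
Log2 difference between the diets (y axis, high-fat minus control) against the mean level over the 6 arrays (x axis, log2 centred signal), for all 14533 tested probe sets (grey) and the members, at weeks 2, 4 and 10. At week 4 the brightest probe sets lie below 0 with a median of -0.55, and Hamp and Fth1 lie with them, while Alas1 lies above 0.

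**Figure D5:**
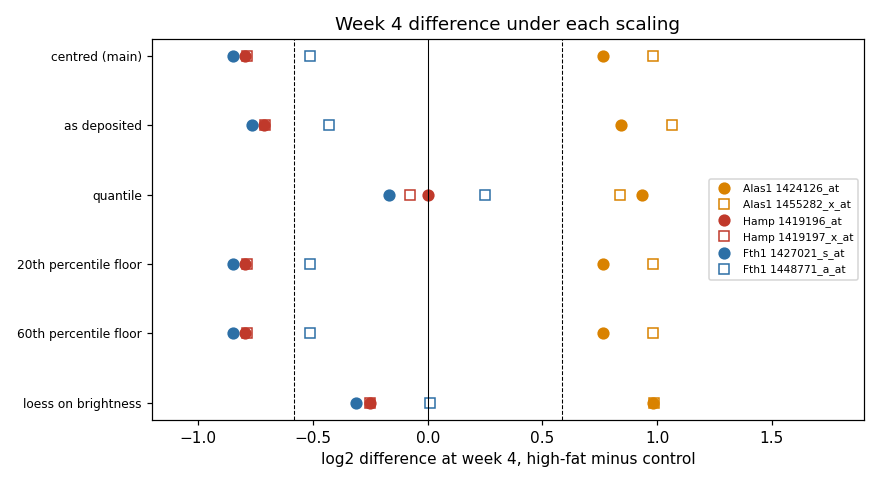
Log2 difference at week 4 (x axis, high-fat minus control) of the 2 probe sets each of Alas1, Hamp and Fth1 under 6 ways of scaling and flooring (rows), with dashed lines at 1.5-fold. Alas1 stays between 0.76 and 1.06, and Hamp and Fth1 lie between -0.31 and 0.25 under quantile normalization and loess.

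Tfrc, the receptor that takes up transferrin-bound iron, had 3 probe sets outside the controls, 1 of them at the floor on all arrays. On the brightest (1452661_at) the signal was 760.3 in the high-fat sample against 1201 in the control sample after 2 weeks, 785.4 against 632.8 after 4, and 508.3 against 751.1 after 10. The high-fat array was 1.58-fold lower at week 2, 1.24-fold higher at week 4 and 1.48-fold lower at week 10. The other tested probe set (1422966_a_at) was at the floor on both arrays of week 4 and had log2 differences of -0.41 at week 2 and 0.37 at week 10, so that the 2 probe sets had 1 sign at week 2 and opposite signs at week 10. Their means were -0.30 (standard error 0.254, limma adjusted p = 0.993) and -0.01 (standard error 0.235, adjusted p = 1). The 3 control probe sets of Tfrc had centred signals of 4.3 to 237.7, with no floor applied, and are not compared.

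Slc40a1 encodes ferroportin, the iron exporter that hepcidin removes. Its brighter probe set (1417061_at) was level, with 5037 in the high-fat sample against 5975 in the control sample after 2 weeks, 6211 against 5868 after 4, and 5885 against 5734 after 10. The other (1448566_at) had 1259 in the high-fat against 2693 in the control sample after 2 weeks, 3024 against 3537 after 4, and 2713 against 2500 after 10. At week 2 it was 2.14-fold below control, against 1.19-fold on the brighter probe set. The means were -0.04 (standard error 0.216, limma adjusted p = 1) and -0.40 (standard error 0.268, adjusted p = 0.993). Macrophages also carry ferroportin and heme oxygenase. Of 15 tested macrophage markers, 3 lay past 1.5-fold below control at week 2, as 10.2% of all tested probe sets did. At week 4, 1 was that much lower and 1 that much higher, against 7.27% and 4.46%. At week 10, 10 were at least 1.5-fold higher, against 14%. Of the 15 markers 0 rose and 0 fell over the weeks by limma, 1 with an unadjusted p under 0.05. Their summed signal was 21964 to 34636 on the high-fat and 16440 to 35188 on the control arrays, none was at the floor throughout, and the part of these cells in the values of Slc40a1 and Hmox1 was not tested. Of 8 tested markers of stellate, endothelial and bile duct cells, 0 rose and 0 fell (1 with an unadjusted p under 0.05), and Krt7 and Epcam lay at the floor throughout.

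Between weeks 2 and 10, 4 of the 16 probe sets were at least 1.5-fold higher at week 10 and 0 lower on the high-fat diet, where 20.3% and 14.6% of all tested probe sets were, or 34.9% either way. On the control diet 4 were higher and 2 lower, against 12.2% and 10.4%, but 1 was higher and 5 lower with the values as deposited, and 2 and 2 under quantile normalization. The brighter Alas1 probe set was higher at week 10 on both diets, by 0.75 on the high-fat and 1.35 on the control diet on the log2 scale, but its other probe set by 0.25 and 0.25. Slc40a1 probe set 1448566_at differed between week 10 and week 2 by 1.11 on the high-fat and -0.11 on the control diet. These comparisons share arrays with those between the diets.

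The other genes of the pathway were read on their brightest probe set by mean log2 level, none passed the test in limma, and none had an unadjusted p under 0.05 unless said. Of 13 tested genes of heme synthesis 0 rose and 0 fell, with a median mean log2 difference of -0.04. Clpx, a mitochondrial unfoldase that acts on ALAS enzymes, had -0.15, 0.06 and -1.56 at weeks 2, 4 and 10. Pgrmc1, a heme-binding membrane protein, had -0.06, -0.49 and -0.52. Alas2, the erythroid form of the first enzyme, had -0.20, 0.91 and 0.34, and the porphyrin transporter Abcb6 -0.21, 0.02 and -0.29. Alas2 is also an erythroid marker, and 5 such markers were tested. In week 4, 1 of them lay past 1.5-fold above control and 1 past it below, against 4.46% and 7.27% of all tested probe sets. In week 10, 3 lay past it above and 0 below, against 14% and 13.6%. Signals summed over 9 measured markers ran from 1696 to 4070 on the high-fat and from 1664 to 2725 on the control arrays. A marker at the floor enters these sums as 155.3, so their low end is in part the floor. Epb42 and Rhag of that list were at the floor throughout, and Slc4a1 and Hba-a2 at weeks 2 and 4.

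Of 9 tested genes of heme breakdown, uptake and export 0 rose and 0 fell, with a median of -0.02. The plasma scavengers haptoglobin (Hp) and hemopexin (Hpx), which bind hemoglobin and heme, lay below control in all 3 weeks, at -0.23, -0.74 and -0.42 for Hp and -0.18, -0.79 and -0.35 for Hpx. Both had signals of 18479 or more on every array, among the brightest probe sets that were lower at week 4. Cd163, the macrophage receptor for haptoglobin-hemoglobin, had 0.01, 0.91 and 0.15, and Abcg2, an exporter of porphyrins and heme, 0.10, 0.68 and 0.04. Of 12 acute phase proteins 0 rose and 0 fell, and 4 were at least 1.5-fold lower at week 4, as 7.27% of all tested probe sets were. The fibrinogen chains Fgg and Fgb had -0.93 and -0.77 there and Itih3 -0.67, all with signals of 13115.5 or more on every array. Of the probe sets with a mean signal of 10000 or more, 44.8% were that much lower at week 4. The dimmer Saa3 had 0.26.

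Of 13 tested genes of iron uptake, storage and export 0 rose and 0 fell, with a median of -0.01. Slc39a14, a transporter that takes up iron not bound to transferrin, lay above control in all 3 weeks, at 0.40, 0.64 and 0.22 (mean 0.42, standard error 0.218, limma adjusted p = 0.993), but had a mean of 0.03 on another probe set. Slc11a2, an iron transporter of endosomes, lay below control in all 3 weeks, at -0.68, -0.26 and -0.29, with means of -0.49 and -0.07 on 2 dimmer probe sets. The metalloreductases Steap1 and Steap4 had means of -0.39 and -0.26. Of 7 tested genes of iron sensing and iron-sulfur clusters 0 rose and 0 fell. Means on the log2 scale were 0.18 for Aco1, the iron regulatory protein that is also an aconitase, -0.22 for Hif1a, -0.08 for the scaffold protein Iscu and 0.04 for Isca1. Dimmer probe sets had means of 0.10 for Aco1, 0.35 and -0.07 for Hif1a and -0.16 for Isca1.

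Of 21 tested regulators of hepcidin 0 rose and 0 fell, 1 had an unadjusted p under 0.05 (Smad7), with a median of -0.02. Smad7, an inhibitor of SMAD signalling that represses hepcidin, had signals of 572.7 in the high-fat sample against 403.5 in the control sample after 2 weeks, 283.6 against 158.0 after 4, and 739.8 against 297.8 after 10. In all 3 weeks the high-fat sample was above control, with a mean log2 difference of 0.89 (standard error 0.237, limma adjusted p = 0.993), and its mean lay between 0.52 and 1.08 over 14 fits that tested it, with adjusted p of at least 0.386. Bmp6, the iron-induced ligand that drives hepcidin, had 238.2 on the high-fat and 248.0 on the control array of week 2, and at weeks 4 and 10 lay at the floor on the high-fat arrays, against 247.9 and 235.6 on the control arrays. It was thus at least 1.60-fold and 1.52-fold lower there. Atoh8, a factor downstream of that ligand, had 573.1 on the high-fat array of week 2, with the control array at the floor of 155.3. Its log2 difference was thus at least 1.88 at week 2, and it was -0.01 and 0.02 at weeks 4 and 10. Cebpa, a hepatocyte factor that activates Hamp, had 0.64, 0.14 and 0.58. Stat3 had -0.18 to 0.24. Smad1 had 0.43, 0.40 and -0.04 at weeks 2, 4 and 10, and Smad4 0.13, -0.08 and -1.01. Smad5 had -0.52 and -0.01 at weeks 2 and 10, with both arrays of week 4 at the floor. Stat3 and these SMAD genes were chosen after their values were seen.

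Of 13 tested regulators of Alas1 and Hmox1 0 rose and 0 fell, 2 had an unadjusted p under 0.05 (Nr1d1 and Nr1d2), with a median of 0.04. Nr1d1 and Nr1d2 encode the REV-ERB receptors, clock repressors that bind heme. Nr1d1 had signals of 1399 in the high-fat sample against 434.9 in the control sample after 2 weeks, 293.7 against 293.6 after 4, and 1258 against 261.0 after 10. Nr1d2 had 2175 in the high-fat against 987.1 in the control sample after 2 weeks, 2250 against 2017 after 4, and 2139 against 940.9 after 10. On these probe sets both lay above control at weeks 2 and 10 and level at week 4. Their means were 1.32 (standard error 0.377, limma adjusted p = 0.993) and 0.83 (standard error 0.261, adjusted p = 0.993). A dimmer Nr1d2 probe set had -0.99, -0.35 and 1.03 at weeks 2, 4 and 10, a mean of -0.10. A link of these receptors to Alas1 was not tested. The time of day of collection is not given in the labels.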

How the data were processed

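Liver RNA was labelled as biotinylated cRNA and hybridised to 1-colour arrays, per the labels' protocols. Per the labels and the values, each deposited number is a linear signal intensity of a probe set. The software that summarized the probes is not named in the labels. The authors had scaled the intensity of each array to a 2% trimmed mean of 500.0 to 500.2, or 800.3 on the control array of week 2, as the values show. The 2 designs hold 45101 and 22690 probe sets, and 22626 shared ones were used after 64 controls were left out.

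From the deposited intensities, log2 values were centred on each array's median over the 9922 probe sets that no array had at the floor. The floor was the pooled 40th percentile, 7.28 on the log2 scale. The 14533 probe sets above it on at least 3 arrays were fitted with limma 3.58.1 in R 4.3.3 (lmFit, eBayes, week as a block, Benjamini-Hochberg). The fit was tested on simulated data. The samples were grouped by diet and week, and nothing in the labels says how many animals an array holds, so spread may be technical as well as biological. Levels of week 4 come from a separately scaled table, so levels were compared between weeks 2 and 10 only, and the mean over 6 arrays served to rank brightness and choose probe sets. Gene names follow the array annotation, and 20351 of 20380 probe sets with 1 symbol were brought up to date by identifier, and 691 had several and 1555 were unnamed here.

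The members and lists were chosen with earlier results of these data known. Named genes were all members and, per list, up to 4 tested genes with the largest absolute mean difference. The brightness threshold of 10000 was chosen after the data were seen. Alternatives covered centring, normalization, floor, filter, brightness, probe set choice, the week block and each week left out. Some listed genes were not analysed here. Figures were drawn with matplotlib 3.10.9.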

Additional observations from a re-analysis of the deposited data

How the results depend on the processing

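The fit pairs the diets within each week through the week block, and leaving the block out changed no call among the members. The labels give no other pairing. Over the 14 alternatives of the limma fit, 0 member probe sets passed at an adjusted p under 0.05, the smallest member adjusted p was 0.374 to 1, and 0 to 3 had an unadjusted p under 0.05, 3 of them without week 10, where 8.93% of all probe sets had one. Over all probe sets, 2 passed, against 10 with the values as deposited, 9 without week 2, 6 without week 10, 1 with trend and robust settings, 1 with the brightest probe set per gene, 2 with the mean per gene and 0 under the other 8 alternatives. The sign of the mean difference turned in 15 of 192 single values, none of them called. With the values as deposited it was -0.12 for Alas1 1424126_at, -0.0937 for Urod and -0.16 for Fech 1418699_s_at. Under quantile normalization it was 0.0517 and 0.0112 for Hamp, 0.12 for Tfrc 1422966_a_at, 0.0337 for Slc40a1 1417061_at and 0.0519 for Fth1 1448771_a_at. Loess gave 0.0254 for that Tfrc and 0.0649 for that Slc40a1 probe set, and the 20th percentile floor 0.0312 for Tfrc. Without week 4, Alas1 1424126_at had -0.28, without week 10 Fech 1418699_s_at -0.0276, and without week 2 Tfrc 1422966_a_at 0.18 and Slc40a1 1417061_at 0.0597. Counts past 1.5-fold moved as follows. At week 2 the 2 became 10 with the values as deposited, whose control array has the higher scaling, and 1 at 2-fold. At week 4 the 5 became 2 under quantile normalization and 2 after loess, both Alas1, and 0 at 2-fold. At week 10 the 0 became 1 under either. Between weeks 10 and 2, at 2-fold, 1 was left on the high-fat and 3 on the control diet. At 1.5-fold, high-fat feeding gave 4 up and 0 down, which became 4 and 1 as deposited and after loess, and 3 and 2 under quantile normalization. Beyond these constructions, the cause was not tested. The number of arrays limits the precision.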

Other observations

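Some genes of the pathway outside the members differed in opposite directions between weeks, and they were chosen after their values were seen. Cpox, the oxidase that follows Urod in heme synthesis, had a signal of 5805 in the high-fat sample against 2253 in the control sample after 2 weeks, 569.3 against 563.8 after 4, and 1562 against 3064 after 10, log2 differences of 1.37, 0.01 and -0.97. Urod, the enzyme before it, did not reach 1.5-fold at any week, and Ppox, the enzyme after it, had 0.02, -0.09 and -0.05. Over all tested probe sets, 5.73% were at least 1.5-fold in opposite directions at 2 weeks, and 0 of the 16 members were. Steap4, an iron reductase of inflamed tissue, had -0.14, 0.62 and -1.27 on its brightest probe set, and -0.85, 0.07 and 0.67 on another. Whether the difference between weeks exceeds the spread between animals was not tested, since each diet has 1 array per week.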
